A study of Mus musculus with 4 samples.

Results

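The oligoadenylate synthetase family of the mouse was followed through 8 genes, Oasl1, Oasl2, Oas1a, Oas1b, Oas1c, Oas1g, Oas2 and Oas3, found by symbol among the 23473 gene rows of a table of RNA-seq read counts. Each of the 8 has 1 row. The family was chosen by its measured difference between the groups, since Oasl2 was already known to be higher and Oasl1 lower with TLX overexpression in these libraries. The levels and fold changes of the 8 genes between those groups are therefore given as a description, with no p-value, and each is said only to lie past or short of the threshold of the fit across all genes.

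Oligoadenylate synthetases are interferon-induced proteins that bind double-stranded RNA and join ATP into short chains with 2′-5′ bonds, known as 2-5A. These chains act as a signal of infection within the cell and are part of antiviral defence. Mice carry several Oas1 copies, the longer proteins Oas2 and Oas3 with repeated synthetase units, and a pair of synthetase-like proteins, Oasl1 and Oasl2, that end in ubiquitin-like repeats. In pancreatic beta cells the family is best known as part of the response to interferon and to viral RNA.

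The cells were labelled as MIN6, a mouse insulinoma line used as a model of the beta cell. The 2 TLX libraries came from cells labelled MIN6 with stable overexpression of Nr2e1, the gene of the nuclear receptor TLX. The 2 control libraries came from cells labelled wild type. All were grown with 25 mM glucose and 15% serum, with no interferon or other agent in the labels, which also do not say whether the line is a clone or a pool or whether replicates are separate cultures. Differences are therefore set against the spread between libraries, which may be technical. Since the control was labelled wild type, TLX cannot be told apart from the making of a stable line. In what follows, the words with TLX name the libraries and not a cause. Gene rows held 8136185 to 8490145 counts in the TLX libraries and 8435976 to 9788646 in the control libraries. Nr2e1 was counted 338 and 281 times in the TLX libraries, against 8 and 10 times in the control libraries.

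Markers of the labelled cell type were at 0 or low, so the results below are not read as typical of beta cells. Of 10 beta cell markers, 6 (Nkx6-1, Neurod1, Iapp, Slc2a2, Chga and Pcsk1) had 0 counts in every library and 1, Ins1, averaged at least 5 CPM (counts per 1000000 of the scaled library size). The list summed to 20.8 and 21.7 CPM in TLX libraries and 20.6 and 18.3 CPM in control libraries. Mesenchymal and fibroblast markers summed to 6751 to 6860 CPM in TLX libraries and 6059 to 6418 CPM in control libraries, with 7 of 10 at 5 CPM or more, while Lum was at 0 and Dcn and Thy1 had 3 counts or fewer in each library. Col1a2 and Vim made up most of that sum, and the list did not move one way. Sparc rose to 310.5 ± 3.7 CPM with TLX, against 169.7 ± 6.7 CPM in control (log2 fold change 0.87, edgeR adjusted p = 2.21e-08), and Fn1 fell to 586 ± 29 CPM with TLX, against 994 ± 35 CPM in control (-0.76, edgeR adjusted p = 4.34e-07). Col1a2 (0.28) was also called higher, though in none of the 4 fits on 3 libraries (0.23 to 0.32) and not with all rows of the table (0.27), and Pdgfrb (-0.73) lower, though not without control replicate 1 (-0.50) or in DESeq2. Leukocyte markers summed to 60.02 and 62.8 CPM in TLX libraries and 76.9 and 86.0 CPM in control libraries, 2 of 9 (Cd68 and Lyz2) reaching 5 CPM and Ptprc having 0 or 1 count in each library. Cd68 fell to 44.3 ± 1.5 CPM with TLX, against 63.7 ± 6.4 CPM in control (-0.53, edgeR adjusted p = 0.000391), while Lyz2 was at 16.7 ± 0.3 CPM with TLX and 17.3 ± 0.03 CPM in control and did not pass (edgeR adjusted p = 0.816). None of 5 endothelial markers reached 5 CPM (sums of 0 to 0.302 CPM). Whether these markers came from other cell types or from the labelled cells was not tested, nor was their part in the results below. In bulk RNA fewer cells of a type and less RNA per cell cannot be told apart.

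All 8 genes lie on mouse chromosome 5. In RefSeq's order of protein-coding and family genes Oasl2 and Oasl1 are direct neighbours, and Oas2, Oas3 and the Oas1 genes form a separate cluster. Start regions of 6 of the 8 are in the RefSeq promoter table (GRCm38.p6, 250 bases before to 50 after the annotated start), with no entry for Oas2 and Oas1b. That build is not the mm9 of the submitters' processing notes, so its coordinates are not joined to the counts. The 250 bases before the start are shown for the gene that fell with TLX and the gene that rose most. Also shown are 1 gene with and 1 gene without a change, each holding matches to the core of the interferon-stimulated response element. Oasl1 is at chr5:114922990-114923239 and Oasl2 at chr5:114896684-114896933, both on the plus strand, and Oas3 at chr5:120777660-120777909 and Oas1a at chr5:120907526-120907775, both on the minus strand. Capitals mark matches on either strand to 3 motifs, the core of the interferon-stimulated response element (GAAANNGAA), the STAT dimer site (TTCNNNGAA) and the short site that TLX binds (AAGTCA).
Oasl1: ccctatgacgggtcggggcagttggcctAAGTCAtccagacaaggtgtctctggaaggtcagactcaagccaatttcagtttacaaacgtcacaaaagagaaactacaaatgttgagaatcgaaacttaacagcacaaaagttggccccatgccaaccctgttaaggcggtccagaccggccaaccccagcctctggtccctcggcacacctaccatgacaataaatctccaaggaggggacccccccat
Oasl2: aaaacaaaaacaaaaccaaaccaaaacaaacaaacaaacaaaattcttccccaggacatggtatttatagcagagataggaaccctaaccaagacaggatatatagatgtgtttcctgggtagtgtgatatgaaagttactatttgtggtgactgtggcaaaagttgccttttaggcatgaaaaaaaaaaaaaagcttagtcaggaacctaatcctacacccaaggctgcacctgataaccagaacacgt
Oas3: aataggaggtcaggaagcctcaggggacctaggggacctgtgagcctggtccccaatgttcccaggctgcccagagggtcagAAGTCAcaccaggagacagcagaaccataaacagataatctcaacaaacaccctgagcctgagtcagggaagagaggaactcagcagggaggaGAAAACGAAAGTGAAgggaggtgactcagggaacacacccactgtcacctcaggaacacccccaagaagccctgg
Oas1a: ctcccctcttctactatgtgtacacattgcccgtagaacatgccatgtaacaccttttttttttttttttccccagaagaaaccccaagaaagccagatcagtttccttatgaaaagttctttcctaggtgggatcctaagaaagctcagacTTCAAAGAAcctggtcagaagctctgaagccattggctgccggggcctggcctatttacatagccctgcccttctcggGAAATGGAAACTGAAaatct

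The response element core was matched in Oas3, Oas1a, Oas1g and Oas1c, each time by 2 overlapping copies within 15 bases. Oas1a and Oas1g hold the same stretch, GAAATGGAAACTGAA, at positions -20 to -6 from the start in Oas1a and -18 to -4 in Oas1g. Oas3 holds GAAAACGAAAGTGAA at positions -75 to -61. Oas1c holds TTCAGTTTCCATTTC, a match on the opposite strand, at positions -113 to -99. Of all 32851 start regions in the table, which belong to 27025 genes, 8.56% hold at least 1 copy and 0.624% at least 2. The windows of Oasl1 and Oasl2 hold no exact match, and other forms of the element or sites outside the windows were not searched. A STAT dimer site was matched in Oas1a alone among the 6 (8.3% of all start regions). The TLX site was matched in Oasl1 at positions -222 to -217 and in Oas3 at positions -168 to -163, beside 15.1% of all start regions. These letters are a description of the windows and say nothing of binding.

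**Figure D1:**
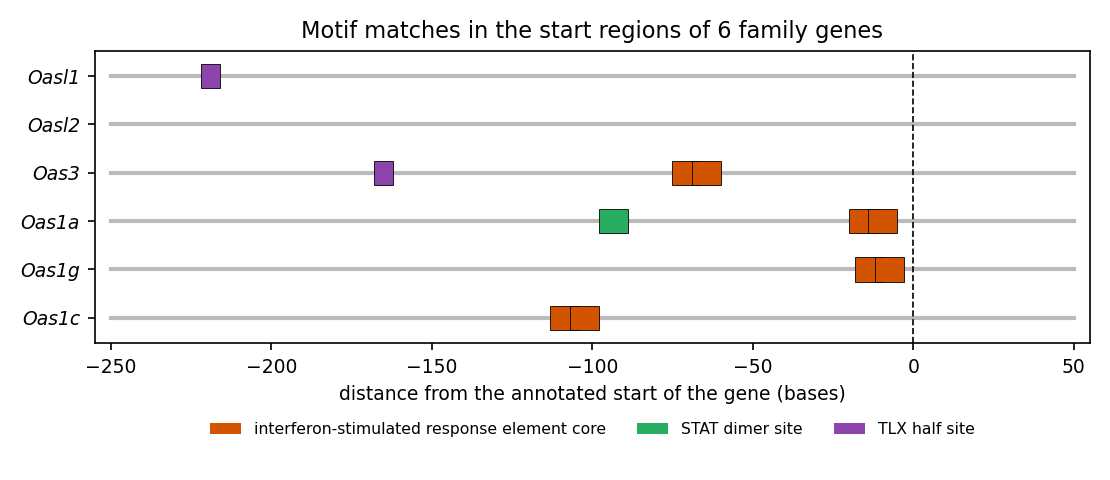
Motif matches in the start regions of 6 family genes, with distance from the annotated start in bases on the horizontal axis and 1 line per gene. Paired response element cores sit in Oas3, Oas1a, Oas1g and Oas1c and in neither Oasl gene, and TLX sites sit in Oasl1 and Oas3.

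Family genes lay past the threshold in both directions with TLX, as the known values of Oasl1 and Oasl2 had fixed in advance. Of the 8 genes, all of which had enough counts to be tested, 3 lay past the threshold as higher (Oasl2, Oas3 and Oas2), 1 as lower (Oasl1) and 4 short of it (the Oas1 genes), in edgeR's quasi-likelihood test with Benjamini-Hochberg adjusted p under 0.05. Over all 11024 genes tested that rule called 16.8% in either direction, 7.79% as higher and 9.04% as lower. The contrast helped to choose the family, so nothing is read from its share. TLX and control libraries did not overlap for 5 of the 8, as for 57.1% of all genes tested. The median log2 fold change was 0.30 over the 8 genes and 0.00057 over all genes tested.

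Oasl1 encodes a member without synthetase activity that in mice is known to restrain translation of the interferon regulator Irf7. It had 2128 and 1918 counts in the TLX libraries and 3044 and 3626 counts in the control libraries. Its level was 246 and 242 CPM in the TLX libraries, against 365 and 365 CPM in the control libraries. Both TLX libraries lay below both control libraries, and each pair of replicates lay within 1.02-fold. The log2 fold change was -0.58 (SE 0.07), a level with TLX that was 0.669 of that in control. In the GENCODE M21 annotation exons of the antisense gene Gm13822 cover 38 of 2608 exonic bases of Oasl1. Whether counting used strand is not given in the sources used here, so reads from those bases cannot be assigned to one of the genes.

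Oasl2 encodes the synthetase-like member that keeps enzyme activity in the mouse. It had 1958 and 1670 counts in the TLX libraries and 1034 and 1246 counts in the control libraries. Its level was 226 and 211 CPM in the TLX libraries, against 124 and 125 CPM in the control libraries. Both TLX libraries lay above both control libraries by far more than replicates differed, and the log2 fold change of 0.81 (SE 0.08, 1.75-fold) was the highest of the family. The ratio of Oasl1 to Oasl2 counts, which needs no scaling between libraries, was 1.09 and 1.15 in TLX libraries and 2.94 and 2.91 in control libraries.

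Oas3, whose human counterpart is a main source of 2-5A, had 1973 and 1689 counts in the TLX libraries and 1389 and 1495 in the control libraries. Its level was 228 and 213 CPM in TLX libraries, against 166 and 151 CPM in control libraries, with a log2 fold change of 0.48 (SE 0.08, 1.39-fold). Oas2, the other long synthetase, had 1108 and 1067 counts in the TLX libraries and 812 and 1052 in the control libraries. Its level was 128 and 135 CPM in TLX libraries, against 97.3 and 106 CPM in control libraries, with a log2 fold change of 0.37 (SE 0.08, 1.29-fold). In both genes each TLX library lay above each control library. Oas2 fell short of the threshold without TLX replicate 2 (log2 fold change 0.33), while Oasl1, Oasl2 and Oas3 stayed past it in all 9 alternatives run.

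**Figure D2:**
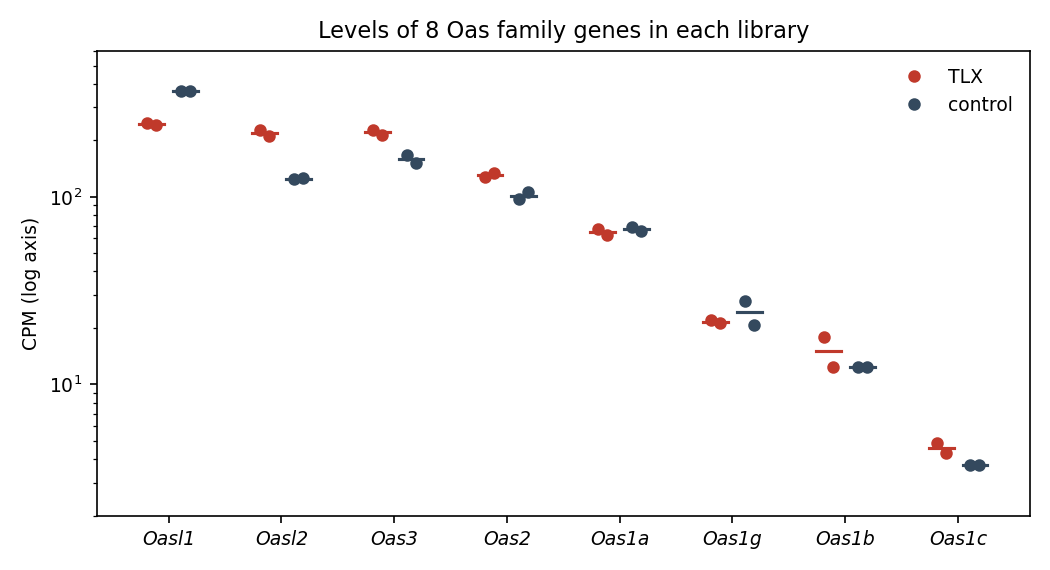
CPM on a log axis for the 8 family genes in each library, TLX at the left of each pair and control at the right, with 1 point per library and a line at the mean of 2 libraries. TLX points lie below control points for Oasl1 and above them for Oasl2, Oas3, Oas2 and Oas1c, and the groups overlap for Oas1a, Oas1g and Oas1b.

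The Oas1 genes did not pass the threshold in either direction. Oas1a, an active synthetase, had 583 and 494 counts in TLX libraries and 579 and 651 in control libraries. Its level was 67.4 and 62.3 CPM in TLX libraries, against 69.4 and 65.6 CPM in control libraries, and the groups overlapped (log2 fold change -0.05, SE 0.09). Oas1g, a second active synthetase, had 22.1 and 21.2 CPM in TLX libraries and 27.9 and 20.6 CPM in control libraries, so that the control libraries differed more from each other than the groups did (log2 fold change -0.15, SE 0.13). Without control replicate 2 it was called lower (-0.37), and without control replicate 1 its value was 0.07.

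Oas1a and Oas1g are close copies, and their counts are uncertain as separate values. Of all 50-base windows in the GENCODE M21 transcripts of Oas1a, 57.6% also occur in a transcript of another family gene, and all of these occur in Oas1g. For Oas1g the share was 45.7%. How the authors' counting placed reads with several matches is not given in the sources used here. Summed, the genes had 774 and 662 counts in TLX libraries and 812 and 856 in control libraries, which is 89.5 and 83.5 CPM in TLX libraries and 97.3 and 86.2 CPM in control libraries, and the groups overlapped here too. No 50-base window of Oasl1, Oasl2, Oas2 or Oas3 occurs in another family gene.

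Oas1b, known for resistance to flaviviruses in some mice and listed by RefSeq as a transcribed pseudogene in this reference strain, stood at 17.9 and 12.4 CPM in TLX libraries and at 12.3 and 12.4 CPM in control libraries. Only TLX replicate 1 stood apart, with 155 counts against 98 in TLX replicate 2, and the log2 fold change of 0.30 (SE 0.16) rested on it. Without that library the value was -0.00078, and without TLX replicate 2 it was 0.54 and past the threshold. Oas1c had 42 and 34 counts in TLX libraries and 31 and 37 in control libraries. Its level of 4.86 and 4.29 CPM in TLX libraries lay above 3.71 and 3.73 CPM in control libraries, with a log2 fold change of 0.30 (SE 0.24) that did not pass the threshold. Transcripts of Oas1b and Oas1c share 1.17% and 9.82% of their windows with other family genes, and exons of the antisense gene Gm43069 cover 227 of 2405 exonic bases of Oas1c.

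The other 4 Oas1 paralogs of the mouse had too few counts to be tested. Oas1h had 8 and 6 counts in TLX libraries and 3 and 6 in control libraries. Oas1e had 1 and 4 counts in TLX libraries and 3 and 0 in control libraries, and Oas1d had a single count, in control replicate 1. Oas1f had 0 counts in every library, which allows a level of up to 0.347 and 0.379 CPM in TLX libraries and 0.359 and 0.302 CPM in control libraries (3 counts, counting error only).

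**Figure D3:**
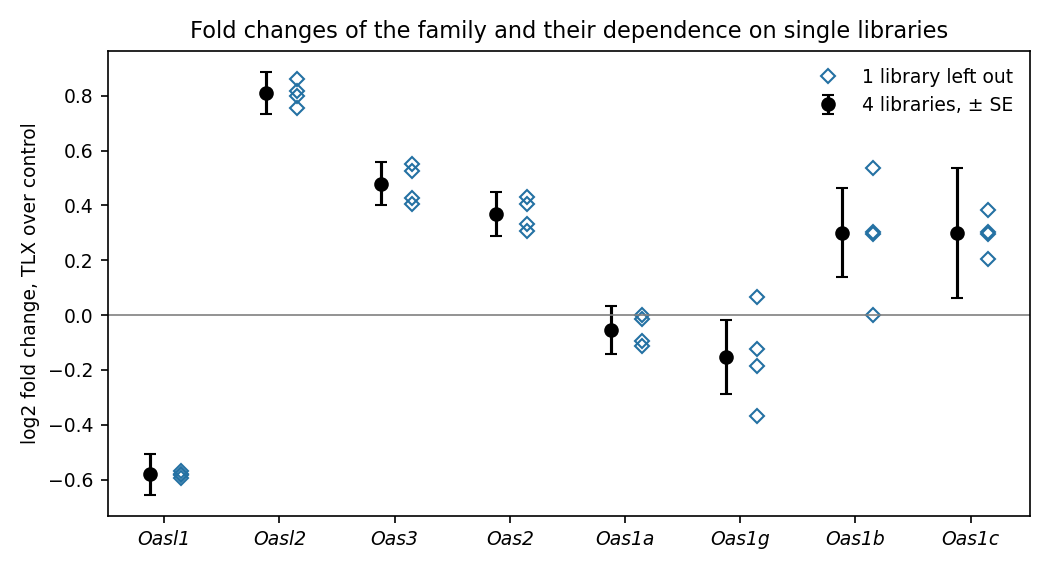
Log2 fold change of TLX over control for each family gene, with all 4 libraries (black, bars ± SE) and with each library left out in turn (open diamonds). The values of Oasl1, Oasl2, Oas3, Oas2 and Oas1c keep their sign when any library is left out. Those of Oas1a, Oas1g and Oas1b reach or cross 0.

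Levels of different genes were set side by side per length, as CPM per kilobase of the feature length in the table. Oasl1 was the most abundant of the 8 in each group, at 115 ± 1.4 CPM per kilobase with TLX and 172 ± 0.17 in control (SD, n = 2 each). It exceeded 94.5% of all tested genes with TLX and 96.5% in control. In TLX libraries Oasl2 (69.7 ± 3.5), Oas3 (46.8 ± 2.3), Oas1a (34.4 ± 1.9) and Oas2 (34.0 ± 1.2) followed, and then Oas1g (10.9 ± 0.3), Oas1b (8.24 ± 2.14) and Oas1c (2.001 ± 0.175). Of neighbours in that order only Oas1a and Oas2 overlapped between libraries. The places of Oas1a and Oas1g are uncertain in both groups, since 57.6% and 45.7% of their 50-base windows occur in another family gene. In control libraries Oasl2 (39.8 ± 0.36), Oas1a (35.7 ± 1.4), Oas3 (33.6 ± 2.4) and Oas2 (26.3 ± 1.6) were close in level, with Oas1a and Oas3 overlapping, ahead of Oas1g (12.2 ± 2.6), Oas1b (6.73 ± 0.019) and Oas1c (1.63 ± 0.0039).

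The make-up of the family differed between the groups, with a smaller share of Oasl1 and a larger one of Oasl2 in TLX libraries. The summed level of the 8 genes was 941 and 901 CPM in TLX libraries and 865 and 849 CPM in control libraries, and the groups did not overlap. Per length, where shorter transcripts weigh more, the sum was 328 and 313 CPM per kilobase in TLX libraries and 331 and 325 in control libraries, and the groups overlapped. Oasl1 held 35.3% and 36.4% of the sum per length in TLX libraries and 51.9% and 52.9% in control libraries. Oasl2 held 22.0% and 21.4% in TLX libraries and 11.9% and 12.3% in control libraries. Oas3 held 14.7% and 14.4% in TLX libraries, against 10.7% and 9.83% in control libraries, and Oas2 held 10.1% and 11.1% in TLX libraries, against 7.61% and 8.44% in control libraries. Without Oasl1 the other 7 genes summed to 695 and 659 CPM in TLX libraries and 501 and 484 CPM in control libraries.

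**Figure D4:**
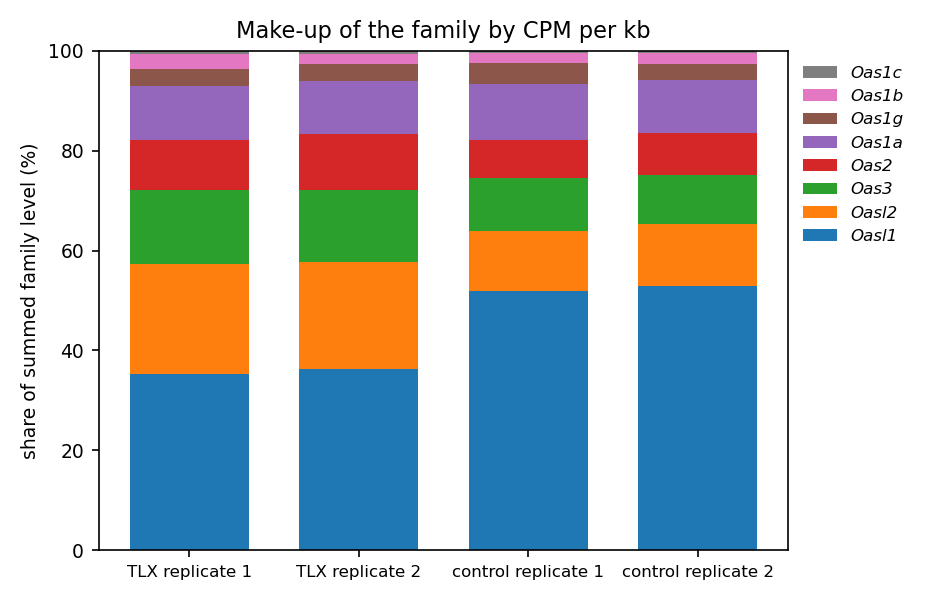
Share of each family gene, in percent, of the summed level of the 8 genes by CPM per kilobase, with 1 bar per library and the TLX libraries at the left. Oasl1 makes up 35.3% and 36.4% in TLX libraries and 51.9% and 52.9% in control libraries, and the shares of Oasl2, Oas3 and Oas2 are larger in TLX libraries.

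Of genes tied to the product of the synthetases, Abce1, known as a ribosome recycling factor, was at 87.1 ± 6.9 CPM with TLX and 71.8 ± 3.8 CPM in control (log2 fold change 0.28, SE 0.09, edgeR adjusted p = 0.0331). It was called higher, but not without TLX replicate 1 (0.35), TLX replicate 2 (0.19) or control replicate 1 (0.22), and not in DESeq2. Pde12, a phosphodiesterase that degrades 2-5A, was at 24.1 ± 0.7 CPM with TLX and 25.8 ± 1.2 CPM in control, with a log2 fold change of -0.10, and did not pass (edgeR adjusted p = 0.613).

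Sensors of foreign nucleic acid, which like the synthetases recognise double-stranded RNA or act beside those that do, held more genes called higher than lower. Of 14 tested, 4 rose and 1 fell, with a median log2 fold change of 0.17, beside 7.79% called higher and 9.04% called lower over all genes. Zbp1, a sensor of nucleic acid in the Z form, rose to 60.05 ± 3.56 CPM with TLX, against 36.4 ± 3.4 CPM in control (log2 fold change 0.73, edgeR adjusted p = 1.15e-05). Ddx58, the RNA helicase RIG-I, had 104 ± 6 CPM with TLX and 74.9 ± 7.5 CPM in control (0.46, edgeR adjusted p = 0.000736). The RIG-I relative Dhx58 (0.50) and the RNA-editing enzyme gene Adar (0.27) were also called, but Dhx58 not without TLX replicate 1 (0.47) or control replicate 2 (0.37), and Adar not without either TLX replicate 1 (0.34) or 2 (0.20). The gene that fell was the kinase gene Ikbke (-0.53), named after its value was seen, and it did not pass without TLX replicate 1 (-0.38) or control replicate 2 (-0.47). Dhx58, Adar and Ikbke did not pass in DESeq2, where 2 of the list were called higher.

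The 5 interferon genes looked up had few or no counts. Of 10 ligand and receptor genes with a row, 3 interferon genes had 0 counts in every library. Ifnb1 and Ifng, named after their values were seen, had at most 1 count in each TLX library and at most 5 in each control library. Of 5 tested receptor genes 0 rose in edgeR (0 of them at an unadjusted p under 0.05 with a positive change, and 0 in DESeq2) and 1 fell, with a median of -0.15. Over all genes 7.79% were called higher and 9.04% lower. Ifngr2, a chain of the interferon gamma receptor, was at 27.3 ± 0.1 CPM with TLX and 34.7 ± 2.3 CPM in control (log2 fold change -0.35, edgeR adjusted p = 0.0253). It did not pass without TLX replicate 1 (-0.35), TLX replicate 2 (-0.36) or control replicate 2 (-0.28), nor in DESeq2. Il10rb, Ifnar2 and Ifngr1 had log2 fold changes of -0.25, -0.15 and 0.05 and did not pass.

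Among 14 tested genes of JAK, STAT and IRF signalling, 3 rose and 1 fell, with a median of 0.14, beside 7.79% and 9.04% over all genes. Irf7, the regulator whose translation Oasl1 is known to restrain, was at 351 ± 26 CPM with TLX and 239 ± 8 CPM in control (log2 fold change 0.55, SE 0.08, edgeR adjusted p = 2.31e-05). These values are of RNA and do not show translation, and a link between Irf7 and Oasl1 was not tested. Stat2, a transcription factor of the type I interferon response, was at 132 ± 1 CPM with TLX and 95.9 ± 2.6 CPM in control (0.46, edgeR adjusted p = 0.00023). Its partner Irf9, looked up after its value was seen, had a log2 fold change of -0.07 and did not pass. Irf3, which acts ahead of interferon production, fell (-0.44, edgeR adjusted p = 0.00723), though not without TLX replicate 2 (-0.37) and not in DESeq2.

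Among other interferon-stimulated effectors more genes were called higher than lower. Calls were made for 18 of 30 tested genes, 17 as higher and 1 as lower. The median log2 fold change was 0.33, and it was positive in 27. Without TLX replicate 1 the number that rose was 11. Cmpk2, a mitochondrial nucleotide kinase, rose to 35.3 ± 2.8 CPM with TLX, against 18.3 ± 1.9 CPM in control (log2 fold change 0.95, SE 0.12, edgeR adjusted p = 5.17e-06). The GTPase gene Irgm1 rose to 95.3 ± 1.6 CPM with TLX, against 51.3 ± 4.8 CPM in control (0.89, SE 0.09, edgeR adjusted p = 2.09e-07). Gbp3 and the ADP-ribosyltransferase gene Parp14 had values of 0.73 and 0.72. The gene that fell, named after its value was seen, was Rsad2, which encodes the antiviral enzyme viperin. Like Oasl1 it lay lower in both TLX libraries, at 19.4 ± 2.9 CPM with TLX and 26.5 ± 1.2 CPM in control (-0.45, edgeR adjusted p = 0.0139), and it did not pass without TLX replicate 1 (-0.31) or in DESeq2. Over the 5 lists 26 of 66 tested genes rose and 4 fell, with a median of 0.23, beside the 7.79% and 9.04% called over all genes. DESeq2 called 18 of these list genes, against 30 in edgeR. The lists were chosen with earlier results of these data known, so nothing is read from their shares.

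**Figure D5:**
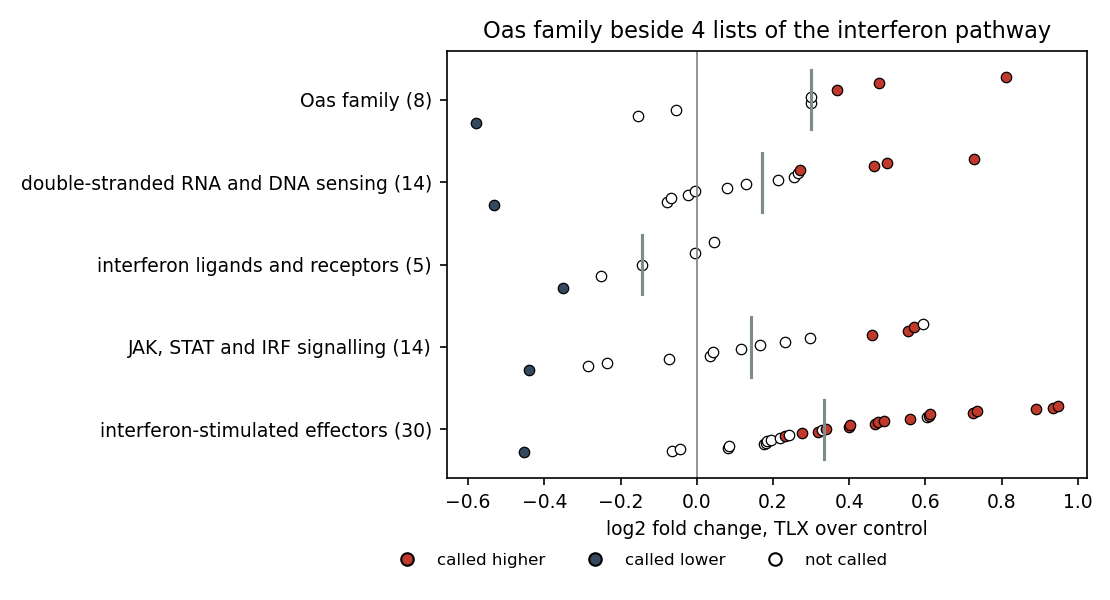
Log2 fold change of TLX over control on the horizontal axis for each tested gene of the family and of 4 lists of the interferon pathway, with the number of genes in brackets, grey lines at the medians and fill showing the call. Medians are 0.30 for the family and 0.33 for the effectors, and Oasl1 lies furthest to the left of all genes shown.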

How the data were processed

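RNA-seq of 4 libraries, 2 TLX and 2 control, was analysed from a table of raw read counts per feature that the authors deposited, with a feature length beside them, per the file headers. TopHat2 2.0.13 and build mm9 are named in the submitters' processing notes; which program counted reads, with which annotation and whether by strand, is not given in the sources used here. A further 33353 rows of cDNA clones were left out, except in 1 alternative, so gene rows took 74.9% to 76.7% of the counts. None of the clone rows had the 4 counts of a family gene, or lay within 2% of them. Genes were kept by filterByExpr at a minimum count of 10, library sizes were scaled by TMM, and the groups were compared in edgeR 4.0.16 (quasi-likelihood F-test, R 4.3.3) over 11024 genes, with 2 residual degrees of freedom. SE is the log2 fold change divided by the square root of F. CPM used TMM-scaled library sizes, with SD over 2 libraries.

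The script was tested on simulated counts. A chi-square of counts per gene was scaled by totals of gene rows without TMM. Its median was 0.924 between TLX replicates and 1.13 between control replicates, against 0.455 for sampling noise. That scaling can add to the excess, which also does not tell separate cultures from technical repeats. The replicates were entered as separate samples in the fits. The family and all lists were chosen with earlier results of these data known. Genes named besides the 8 come from the 4 of smallest p in each list, Nr2e1, markers, the other Oas1 paralogs, the 3 nearest in profile to Oasl1 and to Oasl2, and those said to be named after their values were seen. Alternatives were DESeq2 1.42.0 (Wald test, or size factors only), no filter on low counts, all rows, the replicate number as a block, and each library left out. A planned comparison of protein sequences was not run, and some genes of the lists are not reported here by name. Motifs were searched in RefSeq start regions of GRCm38.p6.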

Additional observations from a re-analysis of the deposited data

How the results depend on the processing

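The call and direction of Oasl1, Oasl2 and Oas3 held in all 9 alternatives, with log2 fold changes of -0.59 to -0.57, 0.76 to 0.86 and 0.41 to 0.55 when 1 library was left out. Of 72 values for the 8 genes, 66 kept direction and side of the threshold. Over the fits that left out a library Oas2 ranged from 0.31 to 0.43, Oas1a from -0.11 to 0.00079, Oas1b from -0.00078 to 0.54, Oas1c from 0.20 to 0.38 and Oas1g from -0.37 to 0.07 (0.0669), and the number of family genes called from 4 to 5. Ifngr1 ranged from -0.12 to 0.25, turning to -0.08 without TLX replicate 1 and -0.12 without control replicate 1. Where a group is left with 1 library, that library is assumed to vary like the other group. All alternatives refit the libraries by which the family was chosen, so they give its calls no separate support.

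Counts over all genes moved more. DESeq2 called 355 genes higher and 484 lower, against 859 and 997 in edgeR, and 18 of the pathway genes against 30; the cause was not tested. Leaving out a library gave 388 to 993 higher, 585 to 1060 lower and 18 to 30 pathway genes. The counts without TLX replicate 1 were 454 higher, 585 lower and 18 pathway genes, and without TLX replicate 2 they were 388 higher and 636 lower. With the replicate number as a block 1495 genes were called higher, 1487 lower, 37 of the pathway (5 of the JAK, STAT and IRF list as higher) and 4 of the family, with Oasl2 at 0.81. The titles share only a number, and same-numbered deviations correlated at 0.14 across 11024 genes, over 2 pairs, so the block stays an alternative. Genes with few counts, such as Oas1c, limit what 2 libraries per group can show.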

Other observations

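Beyond the family and its pathway, the genes whose profile over the 4 libraries lay nearest to Oasl1 and Oasl2 were looked up among 9637 other tested genes averaging at least 5 CPM. The measure was the Euclidean distance between log2 CPM values centred over the 4 libraries, which share their depth and scaling. Nearest to Oasl1 were Nqo2, a quinone reductase gene (0.014, with 41.6 CPM with TLX and 62.4 CPM in control), Zdhhc24 (0.018) and Pnrc2 (0.028). Nearest to Oasl2 were Apoe, which encodes apolipoprotein E (0.051, with 7.05 CPM with TLX and 4.04 CPM in control), the organic anion transporter gene Slco4a1 (0.059, with 122 CPM with TLX and 66.7 CPM in control) and Ccsap (0.079). None of these 6 is on the lists of the interferon pathway used here, which hold only 66 tested genes, so nothing is read from this.

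Some abundant interferon-stimulated genes, named after their values were seen, were also called higher; how they differ from Oasl2 was not tested. Ifitm3, a membrane protein that restricts virus entry, was at 1265 ± 76 CPM with TLX and 1044 ± 58 CPM in control (log2 fold change 0.28, edgeR adjusted p = 0.0253). Its call did not hold without TLX replicate 1 (0.21), TLX replicate 2 (0.34) or control replicate 2 (0.22), or with all rows of the table (0.27). Bst2, the virus-tethering protein tetherin, was at 455 ± 37 CPM with TLX and 345 ± 44 CPM in control (0.40, edgeR adjusted p = 0.00255), and its call did not hold without TLX replicate 1 (0.31). Mx1, an antiviral GTPase gene that is defective in many laboratory mice, had 0 counts in TLX libraries and 1 count in each control library.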
